A study of Mus musculus with 6 samples.

Results

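The aminoacyl-tRNA synthetase genes encode the enzymes that join each amino acid to its transfer RNA, together with scaffold proteins that hold part of these enzymes in a complex. They were chosen by symbol alone, as the rows named with a letter followed by ars and an optional digit, plus Eprs1, Farsa, Farsb, Aimp1 and Aimp2, and 40 of the 12656 genes in the deposited table met that rule. Of these, 21 encode enzymes that work in the cytosol, 17 encode enzymes of mitochondria (symbols ending in 2) and 2 encode scaffold proteins. Polyadenylated RNA was sequenced from cultured 4T1 cells, a mouse mammary tumour line of the triple-negative type. There were 3 libraries after 48 h of LP-184, a drug that damages DNA, and 3 libraries labelled with the solvent DMSO. Both groups are the same cell line with no engineered allele, and the dose of LP-184 is not stated. The labels give no time for the DMSO libraries. Separate cultures for the replicates are not stated either, so a p-value reflects only how much these 6 libraries vary, possibly for technical reasons.

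Cytosolic translation and mitochondrial translation use separate sets of synthetases, all of them encoded in the nucleus. Most amino acids have one gene for each compartment, while Kars1 and Gars1 each supply both. Several cytosolic enzymes, among them those for glutamate with proline, isoleucine, leucine, lysine, methionine, glutamine and arginine, sit in the multisynthetase complex, which is held together by the scaffold proteins Aimp1, Aimp2 and Eef1e1. Many cytosolic synthetase genes are known targets of the transcription factor ATF4, which is made when the translation factor eIF2 is phosphorylated under amino acid shortage or other stress, and which binds with C/EBP proteins to a composite DNA motif.

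The libraries held 18952393 to 22471753 reads with LP-184 and 18864368 to 21585323 reads with DMSO over the genes of the table, and every member passed the filter for testing. Fars2 did so through the DMSO libraries. Levels are given as CPM, the reads of a gene scaled to a common library size. All 7 epithelial markers checked were above 1 CPM in every library, and their summed level was 4092 to 4128 CPM with LP-184 and 5375 to 5409 CPM with DMSO. The markers moved in both directions. Epcam (464 CPM with LP-184 and 361 CPM with DMSO on average) and Cdh1 (394 and 303 CPM in the same order) were higher. So were Krt19 (148 and 115 CPM) and Cldn4 (939 and 768 CPM). Krt7 (705 and 1926 CPM), Krt8 (557 and 770 CPM) and Krt18 (903 and 1145 CPM) were lower. Of 7 fibroblast markers only Pdgfra was in the table (9.19 CPM with LP-184 and 6.85 CPM with DMSO on average), of 5 leukocyte markers only Cd68 (31.3 CPM and 10.2 CPM in the same order), and none of 3 endothelial markers. The part of these markers in the results was not tested. Values are shares of the RNA of a library, so fewer molecules in each cell and fewer cells that express a gene cannot be told apart.

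The 8-base motif TGATGNAA, the form of the composite C/EBP and ATF4 element used here, was searched on both strands of the RefSeq promoter windows (250 bases before to 50 after a transcript start, GRCm38.p6), because many cytosolic synthetase genes are known targets of ATF4. Windows were found for 30 of the 40 members, and 5 of these held the motif, against 4.51% of all 27025 genes with a window and 2.56% of the 8865 tested genes with one. All 5 encode enzymes that work in the cytosol, 5 of 14 with a window, and the motif was in 0 of 14 mitochondrial members and 0 of 2 scaffold genes. The 5 windows are shown 5′ to 3′ with the motif in capitals, which read as TTGCATCA or TTTCATCA where the match is on the other strand.
Aars1 (chr8:111033592-111033891, forward strand): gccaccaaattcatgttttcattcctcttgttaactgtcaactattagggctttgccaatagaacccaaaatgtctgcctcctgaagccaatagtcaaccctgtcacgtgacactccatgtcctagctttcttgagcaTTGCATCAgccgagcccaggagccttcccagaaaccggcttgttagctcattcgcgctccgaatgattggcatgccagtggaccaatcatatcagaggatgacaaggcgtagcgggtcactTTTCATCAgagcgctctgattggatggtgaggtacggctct
Gars1 (chr6:55037751-55038050, forward strand): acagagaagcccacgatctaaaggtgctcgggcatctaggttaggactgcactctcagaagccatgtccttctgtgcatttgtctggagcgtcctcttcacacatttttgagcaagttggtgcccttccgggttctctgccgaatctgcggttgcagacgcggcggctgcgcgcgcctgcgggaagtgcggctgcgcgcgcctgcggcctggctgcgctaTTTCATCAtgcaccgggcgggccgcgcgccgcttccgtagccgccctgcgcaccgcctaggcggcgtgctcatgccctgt
Iars1 (chr13:49681880-49682179, forward strand): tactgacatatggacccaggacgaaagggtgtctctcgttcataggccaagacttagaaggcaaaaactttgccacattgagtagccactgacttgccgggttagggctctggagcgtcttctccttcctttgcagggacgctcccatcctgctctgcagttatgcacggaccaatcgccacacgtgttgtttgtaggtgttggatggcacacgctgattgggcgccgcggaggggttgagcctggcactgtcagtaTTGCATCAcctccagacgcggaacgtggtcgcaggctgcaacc
Tars1 (chr15:11399609-11399908, reverse strand): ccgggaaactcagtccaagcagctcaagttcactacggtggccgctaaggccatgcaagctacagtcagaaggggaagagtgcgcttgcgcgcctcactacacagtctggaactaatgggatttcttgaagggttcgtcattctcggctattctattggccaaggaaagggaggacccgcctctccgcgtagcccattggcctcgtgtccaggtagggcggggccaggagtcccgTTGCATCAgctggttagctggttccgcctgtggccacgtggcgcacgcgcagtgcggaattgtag
Yars1 (chr4:129189653-129189952, forward strand): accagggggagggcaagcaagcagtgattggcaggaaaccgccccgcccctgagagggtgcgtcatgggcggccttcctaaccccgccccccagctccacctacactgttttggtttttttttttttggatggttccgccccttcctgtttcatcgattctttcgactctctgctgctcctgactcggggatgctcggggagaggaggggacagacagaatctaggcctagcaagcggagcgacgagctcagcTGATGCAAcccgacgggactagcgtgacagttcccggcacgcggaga
The motif lay at -15 to -8 from the transcript start in Tars1, at -30 to -23 in Gars1, at 4 to 11 in Yars1 and at 8 to 15 in Iars1, counting the first transcribed base as 1. Aars1 held it at -112 to -105 and again at 10 to 17. Of these 5 genes, 4 rose with LP-184 and Gars1 fell, and of the 9 cytosolic members whose window lacked the motif, 7 rose and 2 fell. The median log2 fold change was 0.40 with the motif and 0.33 without it. A match of these letters is a description of the window and does not show that a factor was bound.

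The first comparison asks how LP-184 changed the RNA of the charging enzymes. Most of the cytosolic synthetase genes rose moderately, by less than 2-fold, while the mitochondrial enzymes spread from a rise of 2.55-fold (Sars2) to a fall of 22.9-fold (Fars2). By limma with Benjamini-Hochberg adjustment over all 11931 genes tested, 27 of the 40 members were higher with LP-184, 9 were lower and 4 did not pass an adjusted p of 0.05. The background is broad: 78.3% of all genes tested were called, 38.3% higher and 40.0% lower. The members were called in 90.0% of cases, 67.5% higher and 22.5% lower, and their median log2 fold change was 0.27, against -0.01 over all genes tested. The LP-184 and DMSO libraries did not overlap for 36 of the 40 members, against 79.1% of all genes tested.

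**Figure D1:**
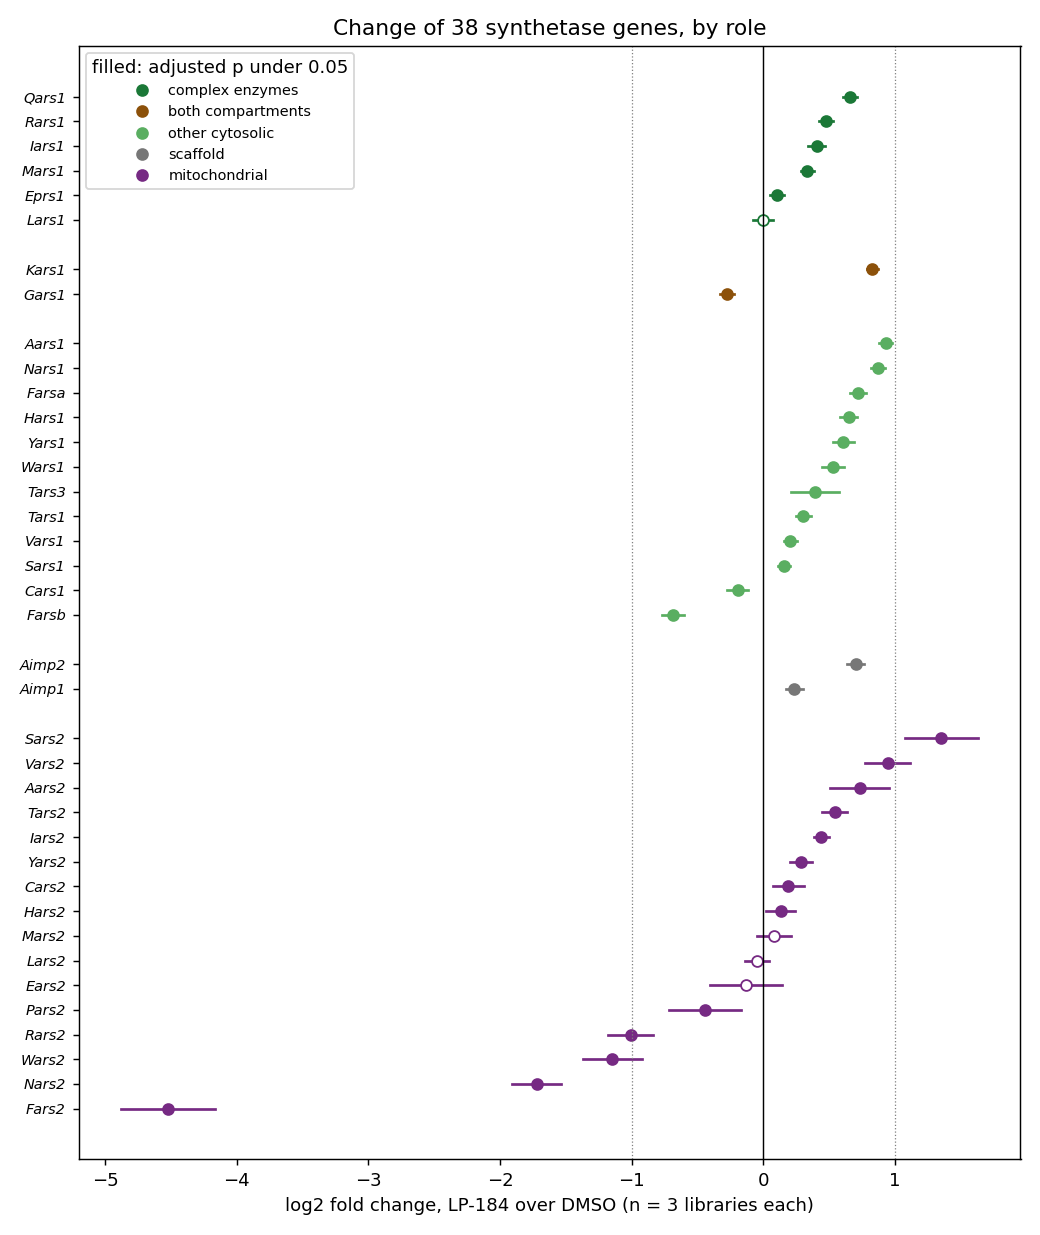
Log2 fold change (LP-184 over DMSO, deposited log2 CPM scale) of 38 of the 40 members on the horizontal axis, grouped by role down the page; points are limma estimates, bars are 95% confidence intervals, filled points passed an adjusted p of 0.05 and dotted lines mark a change of 2-fold. The enzymes of the cytosol drawn lie between -0.69 and 0.93, and the mitochondrial enzymes between -4.52 and 1.35.

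Within the multisynthetase complex, 5 of the 7 enzymes that serve the cytosol alone were higher, 1 was lower and Lars1 was not called. Qars1, which charges glutamine, had 327, 344 and 346 CPM in LP-184 replicates 1 to 3, against 216, 212 and 215 CPM in DMSO replicates 1 to 3. Its LP-184 libraries all lay above its DMSO libraries, with a log2 fold change of 0.66 ± 0.03 (SE, n = 3 each). Rars1, the arginine enzyme, had 245, 252 and 246 CPM with LP-184, against 179.6, 177 and 177 CPM with DMSO, a log2 fold change of 0.48 ± 0.03 with no overlap.

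The other risers of the complex were smaller, with log2 fold changes of 0.40 ± 0.03 (SE) for Iars1 (isoleucine), 0.33 ± 0.03 for Mars1 (methionine) and 0.10 ± 0.03 for Eprs1, the fused enzyme for glutamate and proline. Mars1 shares 1.99% of its annotated exon bases with Ddit3 on the opposite strand, and Ddit3, which encodes the stress transcription factor CHOP, averaged 114 ± 6.34 CPM with LP-184 and 9.07 ± 0.678 CPM with DMSO (SD, n = 3 each). No source used here gives the strand setting of the counting, so the part of shared reads in the Mars1 value was not tested. Iars1 shares 7.15% of its 50-base words with Gm4849, and how reads of that pair were split was not tested. Eprs1 rose by the smallest called amount among the cytosolic members on the deposited scale, though by 0.53 with the trend on gene span removed, with 288, 282 and 290.4 CPM in the LP-184 libraries, against 273, 263 and 265 CPM in the DMSO libraries.

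Lars1, the leucine enzyme, averaged 105 ± 2.59 CPM with LP-184 and 105 ± 4.85 CPM with DMSO (SD, n = 3 each), with overlapping libraries and a log2 fold change of -0.00 (95% confidence interval -0.08 to 0.08, limma adjusted p = 0.955).

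Both scaffold genes rose. Aimp2, which links enzymes inside the complex, had 172, 173 and 177 CPM with LP-184, against 108, 106 and 107 CPM with DMSO, a log2 fold change of 0.70 ± 0.03 (SE). Aimp1, whose fragment is also known as a secreted cytokine, rose by 0.24 ± 0.03. The third scaffold gene, Eef1e1, lies outside the symbol rule and was slightly lower, with 135 ± 2.36 CPM with LP-184 and 149 ± 4.47 CPM with DMSO (SD, n = 3 each; log2 fold change -0.14 ± 0.03, SE). Aimp2 overlaps Eif2ak1, the gene of an eIF2 kinase, on the opposite strand over 29.4% of its exon bases, and Eif2ak1 rose by 0.52 ± 0.06, so the reads of this pair cannot be told apart without a known strand setting.

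Kars1 and Gars1, the genes that supply both compartments, moved in opposite directions. Kars1, the lysine enzyme, was the most abundant member per length, at 191 CPM per kb of merged exons with LP-184 and 107 CPM per kb with DMSO. It had 839, 869 and 847 CPM in the LP-184 libraries, against 479, 477 and 483 CPM in the DMSO libraries, and rose by 0.83 ± 0.02 (log2, SE, limma adjusted p = 5.2e-28). Gars1, the glycine enzyme, had 266, 264 and 261 CPM with LP-184, against 313, 328 and 316 CPM with DMSO, and was lower by a log2 fold change of -0.27 ± 0.03 with no overlap.

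Of the 12 other cytosolic genes, 10 were higher and 2 lower. Aars1, the alanine enzyme (chromosome 8, 111033144 to 111057664, forward strand in GRCm38), rose most: it had 431, 439 and 434 CPM in LP-184 replicates 1 to 3, against 228, 233 and 223 CPM in DMSO replicates 1 to 3. The rise was 1.90-fold, or 0.93 ± 0.02 in log2 units (SE; adjusted p = 5.9e-27 by limma). Aars1 shares 15.1% of its exon bases with other annotated genes, mainly Exosc6 on the same strand. Nars1, the asparagine enzyme, had 356, 353 and 353 CPM with LP-184, against 192, 190.0 and 199 CPM with DMSO (log2 fold change 0.87 ± 0.03). The LP-184 libraries of both genes lay well apart from their DMSO libraries.

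Further rises were those of Hars1 (histidine, 0.65 ± 0.03, log2, SE), Yars1 (tyrosine, 0.61 ± 0.04) and Wars1, the tryptophan enzyme known as interferon-inducible (0.53 ± 0.04). Wars1 had 121, 115 and 111 CPM with LP-184, against 80.2, 76.9 and 82.99 CPM with DMSO, with no overlap. Tars3, the cytosolic paralogue of the threonine enzyme Tars1, was the least abundant cytosolic member per length and rose by 0.39 ± 0.09, beside 0.30 ± 0.03 for Tars1. The smallest rises were 0.21 ± 0.03 for Vars1 (valine) and 0.16 ± 0.02 for Sars1 (serine). With the trend on gene span removed, both were called lower, Vars1 at -0.10 and Sars1 at -0.067 (limma adjusted p = 0.0018 and 0.011). Cars1, the cysteine enzyme, had 86.4, 89.9 and 92.0 CPM with LP-184, against 100.2, 103 and 104 CPM with DMSO, and was lower by a log2 fold change of -0.20 ± 0.04 with no overlap.

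The cytosolic phenylalanine enzyme is built from an alpha subunit (Farsa) and a beta subunit (Farsb), and their genes moved in opposite directions. Farsa had 289, 279.5 and 281 CPM in LP-184 replicates 1 to 3, against 177, 172 and 167 CPM in DMSO replicates 1 to 3. Farsb had 57.7, 58.4 and 56.2 CPM in the LP-184 libraries, against 91.6, 91.8 and 94.2 CPM in the DMSO libraries. Farsa and Farsb changed in log2 units by 0.72 ± 0.03 and -0.69 ± 0.04 (SE) in that order, and neither gene had overlapping groups. Per kb of merged exons, Farsa and Farsb averaged 62.4 and 21.9 CPM with LP-184, and 37.9 and 35.3 CPM with DMSO. Within a library and without scaling for length, the CPM of Farsa was 4.78 to 5.02 times that of Farsb with LP-184. With DMSO it was 1.78 to 1.93 times. This within-library log2 difference between the subunits changed by 1.41, with no overlap between groups (exact two-sided permutation test, p = 0.1, the smallest that 3 against 3 libraries can give). Farsb covers 70.9 kb of the genome and Farsa 12.3 kb. With the trend on gene span removed, the log2 changes were smaller, 0.40 for Farsa and -0.18 for Farsb.

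**Figure D2:**
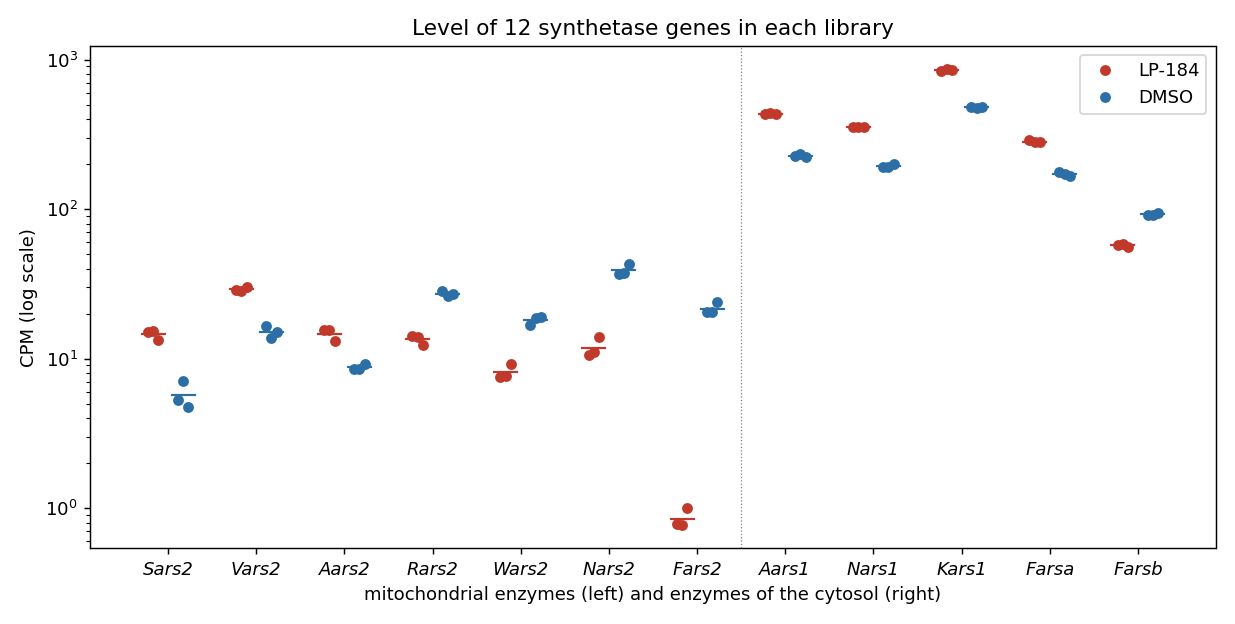
CPM on a log scale in each library for 12 members, with LP-184 (red) left of DMSO (blue); points are libraries and short lines are group means. The 3 LP-184 libraries lie apart from the 3 DMSO libraries for every gene drawn, and Fars2 shows the widest gap, 0.850 CPM with LP-184 and 21.6 CPM with DMSO on average.

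Mitochondrial enzymes were less abundant per length than the cytosolic ones, with a median of 4.87 CPM per kb of merged exons with LP-184 and 5.05 CPM per kb with DMSO, beside cytosolic medians of 46.8 and 35.3 CPM per kb in the same order. Of the 17 mitochondrial members, 9 were higher, 5 were lower and 3 were not called, with a median log2 fold change of 0.13, against 0.39 for the 21 cytosolic members, a difference between medians that was not tested. On the deposited scale, all 5 members that changed by 2-fold or more were mitochondrial, 1 higher and 4 lower. Among all genes tested, 8.08% were higher and 12.6% lower by that much. The set depends on the cut-off, since Rars2 fell by only 2.01-fold. With median centring, Rars2 was at -0.92, Vars2 at 1.03 and the cytosolic Aars1 at 1.02 in log2 units. With the trend on gene span removed, Rars2 was at -0.90, Nars2 at -0.74 and Wars2 at -0.33. The summed level of the cytosolic genes was 5553 to 5585 CPM with LP-184 and 4299 to 4326 CPM with DMSO. That of the mitochondrial genes was 1008 to 1106 CPM with LP-184 and 998 to 1018 CPM with DMSO, so those ranges overlap.

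Fars2, the mitochondrial phenylalanine enzyme (chromosome 13, 36117412 to 36726280, forward strand), fell furthest. It had 0.789, 0.766 and 0.996 CPM in LP-184 replicates 1 to 3, against 20.4, 20.5 and 23.9 CPM in DMSO replicates 1 to 3, from 18, 16 and 19 reads and from 380, 440 and 447 reads. In log2 units the change was -4.52 ± 0.17 (SE, adjusted p = 2.1e-22 by limma), the 24th largest fall among the 11931 genes tested. Fars2 passed the filter for testing through its DMSO libraries, so its p and rank describe the fall and are not separate support for it. Its annotated span of 609 kb is the longest of all members, and its exons share 10.7% of their bases with Nrn1 and Lyrm4 on the opposite strand.

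Nars2, the mitochondrial asparagine enzyme (chromosome 7, 96951505 to 97064758), had 10.6, 11.1 and 13.9 CPM with LP-184, against 36.9, 37.7 and 42.9 CPM with DMSO. Wars2, the mitochondrial tryptophan enzyme (chromosome 3, 99141068 to 99239186), had 7.54, 7.66 and 9.17 CPM with LP-184, against 16.7, 18.6 and 18.9 CPM with DMSO. Rars2, the mitochondrial arginine enzyme (chromosome 4, 34614957 to 34660167), had 14.1, 13.9 and 12.4 CPM with LP-184, against 28.2, 26.4 and 27.0 CPM with DMSO. In all 3 genes every LP-184 library was below every DMSO library, with log2 changes of -1.72 ± 0.09 (SE) for Nars2, -1.15 ± 0.11 for Wars2 and -1.01 ± 0.08 for Rars2. Pars2, the mitochondrial proline enzyme, had 6.44, 6.28 and 6.29 CPM with LP-184, against 8.21, 9.32 and 8.40 CPM with DMSO, and changed by -0.44 ± 0.13 in log2 units (SE; adjusted p = 0.0035 by limma). This call was lost with quantile normalization (-0.17).

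Sars2, the mitochondrial serine enzyme (chromosome 7, 28741992 to 28753871), was the member with the largest rise. It had 15.0, 15.3 and 13.4 CPM in LP-184 replicates 1 to 3, against 5.26, 7.13 and 4.76 CPM in DMSO replicates 1 to 3, a rise of 1.35 ± 0.14 in log2 units (SE; adjusted p = 4.6e-11 by limma). The LP-184 libraries were all higher, from 917 reads in total against 340 reads with DMSO. Vars2, the mitochondrial valine enzyme, had 28.8, 28.2 and 30.3 CPM with LP-184, against 16.6, 13.7 and 15.1 CPM with DMSO (log2 fold change 0.94 ± 0.08). Aars2, the mitochondrial alanine enzyme, had 15.5, 15.4 and 13.05 CPM with LP-184, against 8.53, 8.57 and 9.20 CPM with DMSO (0.73 ± 0.11), and neither gene had overlapping groups.

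Other rises were those of Tars2 (threonine, 0.54 ± 0.05, log2, SE), Iars2 (isoleucine, 0.44 ± 0.03), Yars2 (tyrosine, 0.29 ± 0.04), Cars2 (cysteine, 0.19 ± 0.06) and Hars2 (histidine, 0.13 ± 0.05, limma adjusted p = 0.024). Cars2 had 39.5, 43.7 and 41.8 CPM with LP-184, against 36.3, 35.9 and 37.5 CPM with DMSO. Its lowest LP-184 library was above its highest DMSO library. The call of Hars2 was lost without LP-184 replicate 3 (0.11) and without DMSO replicate 2 (0.11). Hars2 was at -0.21 and called lower with the trend on gene span removed (limma adjusted p = 0.0017). Iars2 shares 24.2% of its exon bases with genes on the opposite strand, mainly Rab3gap2. The opposite strand also holds exons of other genes over 9.47% of the exon bases of Farsb, 8.52% of Vars2, 7.97% of Hars1 (by Hars2) and 4.56% of Hars2 (by Hars1), and shared reads there were not tested. Mars2 (0.08, 95% confidence interval -0.05 to 0.21), Ears2, the glutamate enzyme (-0.13, -0.40 to 0.14), and Lars2, the leucine enzyme (-0.05, -0.14 to 0.05), were not called, which does not show that they kept their level.

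Lars2 was the most abundant mitochondrial member per length, with 327, 406 and 421 CPM in LP-184 replicates 1 to 3, against 401, 405 and 379 CPM in DMSO replicates 1 to 3. The groups overlapped, with LP-184 replicate 1 the lowest of all 6 libraries. Without that library the log2 fold change was 0.07 (limma adjusted p = 0.045), and without LP-184 replicate 3 it was -0.12 (limma adjusted p = 0.027), so the sign rests on single libraries. Without Lars2, the summed level of the other 16 mitochondrial genes was 681 to 688 CPM with LP-184 and 603 to 618 CPM with DMSO, with no overlap. Most of that difference lay in Iars2, which averaged 224 CPM with LP-184 and 165 CPM with DMSO. Groups also did not overlap for 79.1% of single genes tested.

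The second comparison set the cytosolic enzyme of an amino acid against its mitochondrial counterpart within each library, a difference that a single scaling factor for a library does not move. Over 18 pairs, the LP-184 and DMSO libraries did not overlap in 14, with the cytosolic gene gaining on the mitochondrial one in 9 and losing to it in 5. This share of 77.8% is close to the 79.1% of single genes tested whose groups did not overlap, so the count is not a result about the pairs. With 3 against 3 libraries the exact two-sided permutation test cannot go below p = 0.1, which all 14 reached (0.129 adjusted over the 18 pairs), so no pair could pass 0.05. In 7 pairs both genes were called and in opposite directions. No share for pairs of other genes was computed. Of all genes tested, 38.3% were called higher and 40.0% lower, so this count is not a result about the pairs either. Fars2 is in both phenylalanine pairs and Eprs1 in the glutamate and the proline pair, so the 18 pairs are not independent.

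The widest gains of the cytosolic gene were those of phenylalanine and asparagine. Farsa exceeded Fars2 by 8.35, 8.34 and 8.003 on the log2 CPM scale in LP-184 replicates 1 to 3, against 3.11, 3.06 and 2.80 in DMSO replicates 1 to 3, a change of 5.24. Farsb, although lower itself, gained 3.83 on Fars2. Nars1 exceeded Nars2 by 5.06, 4.98 and 4.66 with LP-184, against 2.38, 2.33 and 2.21 with DMSO, a change of 2.59. With the trend of fold change on gene span removed (described with the spans), these changes were smaller, 2.17 for Farsa, 1.60 for Farsb and 1.33 for Nars1. On the deposited scale the cytosolic gene was further above its counterpart in every LP-184 library than in any DMSO library of these pairs.

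Tryptophan and arginine followed the same order, with the difference Wars1 minus Wars2 changing by 1.68 (0.85 with the span trend removed) and Rars1 minus Rars2 by 1.48. For proline, Eprs1 minus Pars2 changed by 0.54, by 0.25 with quantile normalization and by 1.28 with the span trend removed. Smaller gains without overlap were 0.51 for histidine, 0.32 for tyrosine and 0.20 for alanine. With the span trend removed those of tyrosine and alanine were 0.64 and 0.38, and that of alanine turned to -0.04 with quantile normalization. The pairs of glutamate, methionine, leucine and isoleucine had overlapping groups.

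In the other direction, Sars1 exceeded Sars2 by 4.74, 4.69 and 4.90 on the log2 CPM scale in LP-184 replicates 1 to 3, against 6.09, 5.62 and 6.22 in DMSO replicates 1 to 3, a change of -1.20. The valine pair changed by -0.74, the cysteine pair by -0.38 and the threonine pair by -0.24. On the deposited scale, both genes of the serine, valine and threonine pairs rose, and the mitochondrial one rose more.

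**Figure D3:**
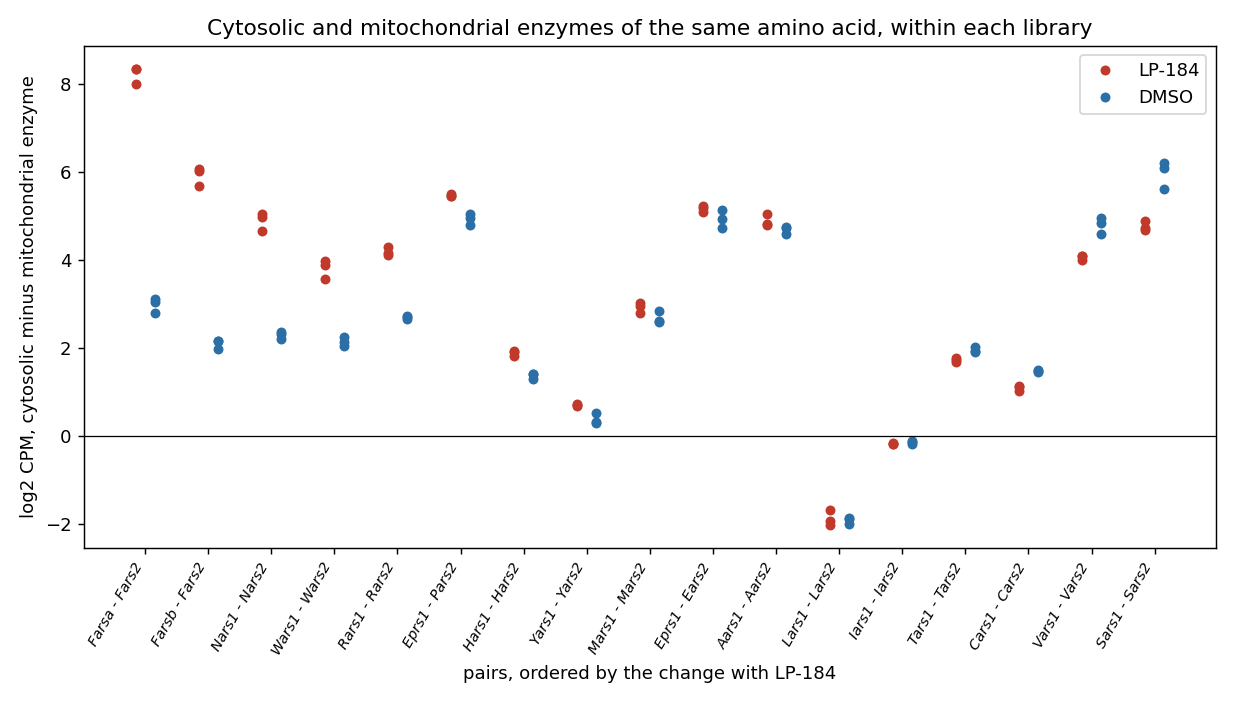
Difference in log2 CPM between the cytosolic and the mitochondrial enzyme of the same amino acid within each library (vertical axis), for 17 of the 18 pairs ordered by the change with LP-184; LP-184 libraries (red) stand left of DMSO libraries (blue), and points are libraries. The LP-184 points of the pairs with Fars2, Nars2, Wars2 and Rars2 stand well above their DMSO points, and the serine and valine pairs stand lower with LP-184 than with DMSO.

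Fold change among the members went with the stretch of genome a gene covers, as it did among all genes. Across members, Spearman's rho between log2 fold change and annotated span was -0.57 (n = 40 genes), with -0.62 among the 21 cytosolic and -0.53 among the 17 mitochondrial members, beside -0.49 over the 11481 genes tested that have a span. These genes share the same 6 libraries and are not independent replicates. No cytosolic member spans more than the 70.9 kb of Farsb, while Fars2, Nars2, Wars2 and Lars2 span 609, 113, 98.1 and 95.7 kb. Among the 13 mitochondrial members within 80 kb, a limit set after these values were seen, 9 were higher, 2 were lower and 2 were not called, with a median log2 fold change of 0.25.

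Subtracting the trend of fold change on span over all genes left the members with 23 higher, 13 lower and 4 not called, beside 35.3% higher and 38.9% lower of all genes with a span. On that scale Fars2 was at -1.78, Rars2 at -0.90, Pars2 at -0.75, Nars2 at -0.74 and Wars2 at -0.33, all still past an adjusted p of 0.05. Farsb was at -0.18, Farsa at 0.40, Qars1 at 0.28 and Hars1 at 0.36, and Mars1 and Tars1 (both 0.03) lost their calls. Yars2 was at -0.09 and not called (limma adjusted p = 0.0603), while Lars2, which was not called before, was at 0.74 (limma adjusted p = 4.6e-11). The cytosolic median was 0.36 and the mitochondrial median -0.09. Sars2 (1.03), Aars1 (0.79), Vars2 (0.62) and Iars1 (0.62) were, with Lars2, the highest on that scale.

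**Figure D4:**
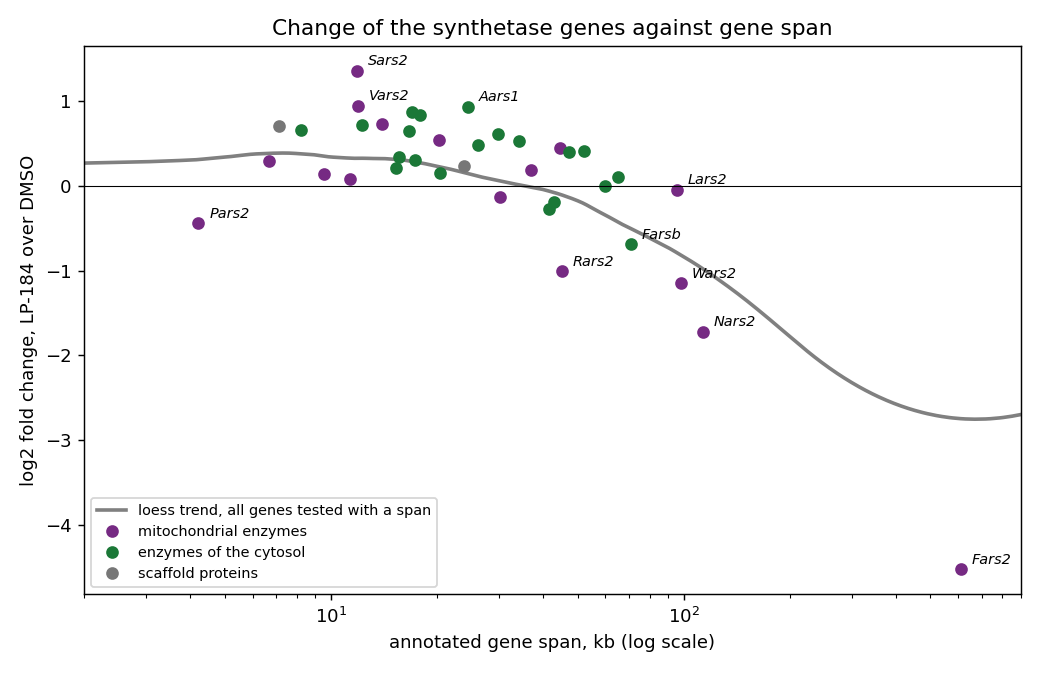
Log2 fold change (LP-184 over DMSO) of 38 of the 40 members against annotated gene span in kb on a log scale; the grey line is the loess trend over all 11481 genes tested with a span. Fars2, the longest member, lies lowest at -4.52, Lars2 lies above the trend and Rars2 and Pars2 lie below it.

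Synthetases fall into 2 structural classes that differ in the fold of their catalytic domain. Of 19 class I members (Eprs1, which carries one domain of each class, counted here), 12 were higher, 3 lower and 4 not called, and of 19 class II members 13 were higher, 6 lower and none not called. The median log2 fold changes were 0.21 and 0.30. All 4 members without a call, Lars1, Lars2, Mars2 and Ears2, were of class I. Class I members were called in 78.9% of cases, near the 78.3% of all genes tested. Class II members were called in 100% of cases, and the difference between the classes was not tested.

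Genes that work beside the synthetases gave a mixed picture. Of 29 other genes of amino acid synthesis and transport that were tested, 18 were higher, 8 lower and 3 not called. That is 62.1% higher and 27.6% lower, beside 38.3% and 40.0% of all genes tested. The largest rises were those of Slc1a4, a neutral amino acid transporter (32.1 CPM with LP-184 and 13.1 CPM with DMSO on average, log2 fold change 1.28 ± 0.08, SE), Pycr3 of proline synthesis (1.18 ± 0.05) and Mthfd2, a mitochondrial folate enzyme (1.16 ± 0.03). The largest falls were those of Mthfd1l, another mitochondrial folate enzyme (-1.61 ± 0.04) and the cystine transporter Slc7a11 (-0.95 ± 0.14). With the span trend removed, Mthfd1l was at 0.12 and Slc7a11 at 1.77. These values rest on the full annotated span of a gene, and which of its transcripts the cells made was not tested. On that scale 20 of the 28 genes with a span were higher and 5 lower, beside 35.3% and 38.9% of all genes.

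Among 25 stress response regulators, 17 were higher and 6 lower, with 9 higher by 2-fold or more. That is 68.0% higher and 24.0% lower, beside 38.3% and 40.0% of all genes tested, of which 8.08% were higher by 2-fold or more. The largest rises in log2 units were those of Ddit3 (3.64 ± 0.07, SE), the stress transcription factor gene Atf3 (3.52 ± 0.05) and Ppp1r15a, a phosphatase subunit that acts on eIF2 (2.73 ± 0.06). The largest falls were those of Eif2ak3 (-0.56 ± 0.12), the kinase of the endoplasmic reticulum, Eif2b3 (-0.39 ± 0.07), a subunit of the eIF2 exchange factor, and Eif2s1 (-0.35 ± 0.02), the eIF2 subunit that is phosphorylated. Atf4 itself rose to 347 ± 3.98 CPM with LP-184, against 236 ± 2.22 CPM with DMSO (SD, n = 3 each; log2 fold change 0.56 ± 0.03, SE). Eif2ak4, an eIF2 kinase known as the sensor of uncharged transfer RNA, had a log2 fold change of -0.07 ± 0.08 with overlapping groups (22.9 CPM with LP-184 and 24.1 CPM with DMSO). With the span trend removed, Eif2ak4 was at 0.62, Eif2b3 at 0.075, Eif2ak3 at -0.20 and Atf4 at 0.29. On that scale 14 of the 23 genes with a span were higher and 5 lower, beside 35.3% and 38.9% of all genes.

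Genes of transfer RNA processing and modification were close to the background, with 33 of 73 tested higher, 25 lower and 15 not called and a median log2 fold change of 0.06. The background was 38.3% higher and 40.0% lower, or 35.3% and 38.9% with the span trend removed. Ctu1, a subunit of the enzyme that thiolates the wobble uridine, had the largest rise (23.9 CPM with LP-184 and 8.17 CPM with DMSO, log2 fold change 1.54 ± 0.10, SE), followed by the methyltransferase gene Trmt2a (1.19 ± 0.04) and the dihydrouridine synthase gene Dus3l (0.94 ± 0.05). The largest falls were those of Cdkal1, a thiomethyltransferase of a lysine transfer RNA (0.631 CPM with LP-184 and 14.1 CPM with DMSO, -4.30 ± 0.21), the Elongator subunit gene Elp4 (-3.10 ± 0.13) and the methyltransferase gene Trdmt1 (-2.04 ± 0.13). Cdkal1 passed the filter for testing through its DMSO libraries. After removal of the span trend, Cdkal1 was at -1.55, Elp4 at -1.29 and Dus3l at 0.59, and 27 of the 72 genes with a span were higher and 32 lower.

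Of 13 tested partners of charging outside the rule, 5 were higher and 7 lower. For this list and the next, shares of all genes were 38.3% higher and 40.0% lower, or 35.3% and 38.9% with the span trend removed. Mitochondria charge glutamine indirectly through the amidotransferase made from Gatb, Gatc and Qrsl1, and these subunit genes diverged: Gatb fell (7.09 CPM with LP-184 and 22.4 CPM with DMSO, log2 fold change -1.67 ± 0.12, SE), while Gatc rose by 0.69 ± 0.06 and Qrsl1 by 0.39 ± 0.08. Sepsecs, which makes selenocysteine on its transfer RNA, was lower (-2.21 ± 0.15), as was Dtd1, a deacylase that removes D-amino acids from transfer RNA (-1.95 ± 0.08), and Lrrc47 rose by 0.81 ± 0.05. Once the span trend was removed, Gatb was at -1.03, Gatc at 0.31, Dtd1 at -0.43 and Lrrc47 at 0.47, and 3 of these 13 genes were higher and 8 lower. Of 15 elongation and mitochondrial translation factors, 4 were higher and 7 lower. Tufm, which delivers charged transfer RNA to the mitochondrial ribosome, rose by 0.89 ± 0.03, Mtif3 by 0.27 ± 0.08 and Eef2 by 0.23 ± 0.02, while Mtrf1 (-1.03 ± 0.13), Mrrf (-0.90 ± 0.07) and Tsfm (-0.49 ± 0.06) were lower. After the trend on span was removed, 1 of the 15 was higher and 11 were lower, and Mtif3 (-0.055) and Eef2 (-0.13) changed sign.

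In the authors' deposited table of their own comparison, 27 members were higher, 9 lower and 4 not below an adjusted p of 0.05, and all 40 had the same call and direction as here. In the authors' deposited table the log2 fold change of Fars2 was -4.66, and those of the other members differed from the values here by at most 0.0179.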

How the data were processed

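Polyadenylated RNA of 6 libraries of 4T1 cells was analysed, 3 given LP-184 for 48 h and 3 given DMSO; the human and single-cell parts of the study are not analysed here. The authors deposited log2 CPM with 1 column per library, and its control columns were read as the equally numbered DMSO samples. Tools named in the submitters' processing notes, with no roles, are edgeR, Subread 2.0, featureCounts, STAR 2.7 and fastp, with builds hg38 and mm10. No source used here gives the gene filter, annotation or strand setting. A prior count sits under the deposited log2 values (0 reads is -3.34 in every library); with it removed, 100% of values were whole reads (tolerance 1e-06 of the value), and CPM is that value. A table of the authors' own log2 fold changes with p-values and adjusted p-values was deposited and is used only where named.

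The 11931 genes that reached log2 CPM 0 in 3 or more libraries were tested with limma 3.58.1 in R 4.3.3 on the deposited log2 values (two-sided, trended empirical Bayes variances, Benjamini-Hochberg over all genes tested, threshold 0.05). Fold changes are LP-184 minus DMSO, and the prior understates those of low genes. Levels between genes are given per kb of merged exons, except that within-library ratios and pair differences use CPM without scaling for length. Spans, exons and overlaps come from GENCODE M21 (build GRCm38, equal to mm10), joined by symbol for 12153 of 12656 genes, 19 members by an older symbol. Coordinates are 1-based. The span trend was fitted over all genes by loess (smoothing 0.3, log10 of gene span) and taken off the LP-184 columns. It was taken as known, so p-values after its removal leave out its own error. Summaries used scipy 1.17.1, numpy 2.4.6 and pandas 2.3.3 under Python 3.11.15. The limma steps were also run on simulated counts with few changed genes and no span trend. That setting is unlike these data, so the run does not bear on the calls here.

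The members, lists and tests were chosen with earlier results of these data known. All members may be named; values in every library are given for members changed by 2-fold or more, for the largest rise and fall of each role and for pairs called in opposite directions. Other members given in full, the Farsa and Farsb ratio, the sum without Lars2 and the limit of 80 kb were chosen after the values were seen. Results of some members and listed genes are not reported here, though counts and medians include them. Otherwise, in the other lists the 3 largest called changes in each direction are named, and Atf4, Eif2ak3, Eif2ak4, Eif2ak1 and Eef1e1 besides. The replicate numbers of the groups share only a number (correlations of deviations from -0.02 to -0.01). Alternatives were other scalings, pseudocounts, filters, variance models and thresholds, leaving out each library, a replicate block, voom on the recovered reads and removal of the span trend.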

Additional observations from a re-analysis of the deposited data

How the results depend on the processing

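The counts of members higher and lower stayed within 1.5 times under every alternative tried. Leaving out each library gave 26 to 28 higher and 9 to 10 lower, voom on the recovered reads 27 and 9 (9375 of all genes called, against 9341), and removal of the span trend 23 and 13. With the replicate number as a block, 27 members were higher and 9 lower, as without it, and 9291 of all genes were called. The cytosolic median log2 fold change was 0.48 with median centring and 0.33 to 0.41 leaving out each library, and the mitochondrial median was 0.22 with median centring, 0.18 with quantile normalization and -0.094 with the span trend removed. Of 680 member values under 17 alternatives each, 660 kept direction and side of the threshold, 5 kept direction and lost the call, 2 gained it and 13 changed sign, 7 of these with the span trend removed.

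With the span trend removed, values of the other sign were -0.21 for Hars2, 0.34 for Lars1, 0.74 for Lars2, -0.24 for Mars2, -0.067 for Sars1, -0.10 for Vars1 and -0.094 for Yars2, and, for pair differences, 0.073 for isoleucine and -0.40 for leucine. Of these members, all but Yars2 passed an adjusted p of 0.05 on that scale. Median centring gave 0.085 for Lars1 and 0.040 for Lars2. Quantile normalization gave 0.12 for Ears2 and pair differences of -0.040 for alanine, -0.041 for glutamate and -0.0038 for leucine. Leaving out each library gave -0.027 to 0.035 for Lars1, -0.12 to 0.065 for Lars2 and -0.051 to 0.12 for the leucine pair. The cause was not tested. Calls were lost for Pars2 with quantile normalization, for Hars2 without LP-184 replicate 3 or DMSO replicate 2, and for Mars1 (0.03), Tars1 (0.03) and Yars2, whose sign also changed, with the span trend removed. Depth limits the low members most: Fars2 rests on 53 reads in total with LP-184, against 1267 reads with DMSO.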
